A study of Mus musculus with 2 samples.

Results

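This account follows 9 genes of interleukin 2 (IL-2) signalling through RNA from mouse spleen cells isolated as CD4+CD25+ and kept with endothelial cells. They are the receptor chains Il2ra, Il2rb and Il2rg, the transcription factor genes Stat5a and Stat5b, and the feedback genes Cish, Socs1, Socs2 and Socs3. Members were chosen by gene symbol, and all 9 were found among the 14774 genes of the deposited count table. Cells labelled as regulatory T cells (Tregs) came from C57BL/6 spleens and were co-cultured for 5 days with SVEC4-10 cells, an SV40-transformed mouse endothelial line. In the control group the endothelial cells had been given a control oligonucleotide. In the knockdown group they had been given small interfering RNA (siRNA) directed at Capns1. This gene encodes the regulatory subunit of the calcium-dependent proteases calpain 1 and 2. The spleen cells themselves were not transfected, and the number of mice is not stated in the labels. Each group had 1 library. The column names of the count table were matched to the groups by their meaning (Cont for control, Si for interfering RNA), so the direction of every fold below rests on that match.

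IL-2 binds a receptor of up to 3 chains. The alpha chain CD25 (Il2ra) raises the affinity and does not signal, while the beta chain (Il2rb) and the common gamma chain (Il2rg) carry the Janus kinases JAK1 and JAK3. These kinases phosphorylate STAT5A and STAT5B, which enter the nucleus and switch on target genes, among them Cish and other members of the suppressor of cytokine signalling (SOCS) family. SOCS proteins bind the receptors or kinases through an SH2 domain and recruit a ubiquitin ligase through their SOCS box, which closes a negative feedback loop. Tregs carry much CD25 and depend on IL-2 made by other T cells.

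Depth was alike, at 48100576 deposited reads for the control and 47300284 for the knockdown co-culture. The 2 are called the control and the knockdown library below. Levels are library-scaled read counts (CPM, with TMM scaling), on which scale 3 reads come to 0.0626 CPM (control) and 0.0642 CPM (knockdown). With 1 library per group there is no replicate check and no p-value. The 95% intervals are exact intervals for counting error alone and compare these libraries, not the conditions. PCR copies were not marked by molecular identifiers, which can make these intervals too narrow. Markers went against a pure Treg sample in both libraries. Cd4 stood at 8.22 (control) and 6.25 CPM (knockdown), below the CD8 T cell gene Cd8a at 63.9 and 56.5 CPM. The Treg factor gene Foxp3 stood at 5.22 and 4.73 CPM and 9 T cell markers summed to 195.8 and 195.9 CPM, while 9 B cell markers summed to 2829 and 2516 CPM. Which cells the reads of the 9 genes came from was not measured. In bulk RNA, fewer cells of a type and less RNA per cell cannot be told apart.

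The 250 bases before the annotated start were available for 7 of the 9 genes in RefSeq's table (build GRCm38.p6, which is not a build named for these counts), with 9 start sites in all. There was no window for Il2rb and Socs2. Each window was searched for TTCNNNGAA, the core that STAT5 and several other STATs bind, which reads the same on both strands. Of 32851 windows of this length in the mouse table, 7.02% held it. Among the IL-2 pathway windows it was in 1, that of Socs3. A pair of GAAA with any 2 bases between them (or TTTC, on the other strand), the core bound by interferon regulatory factors, was in 2.98% of all windows and in 1 of the 9, that of Socs1. It was chosen for the search after the Socs1 window had been read. A match is a description of the letters and does not show binding. The stretches that hold the matches are shown for these feedback genes, with the matching letters in capitals. In Socs3 (chr11:117969452-117969616, minus strand) the match runs from 154 to 146 bases before the start, and only the 165 bases outside annotated exons are shown. In Socs1 (chr16:10785537-10785786, minus strand) 2 overlapping matches run from 83 to 68 bases before the start.
Socs3: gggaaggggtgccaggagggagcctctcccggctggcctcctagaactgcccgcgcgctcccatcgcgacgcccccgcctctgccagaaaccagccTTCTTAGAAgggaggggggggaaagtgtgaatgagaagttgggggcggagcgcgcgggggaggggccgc
Socs1: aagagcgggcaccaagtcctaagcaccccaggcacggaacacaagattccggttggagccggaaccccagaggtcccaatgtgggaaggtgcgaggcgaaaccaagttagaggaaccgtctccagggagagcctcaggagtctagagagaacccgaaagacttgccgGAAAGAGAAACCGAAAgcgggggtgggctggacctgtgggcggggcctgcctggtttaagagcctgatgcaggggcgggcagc

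All 9 genes were measured in both libraries and differed little between them. The feedback gene Cish had the fold farthest from 1, 1.35 in the knockdown over the control library, and Socs2 followed at 1.14. Il2rg, Stat5a and Socs3 stood between 0.902 and 0.931. None of the 9 was 2-fold apart with an interval excluding 1, against 0.142% of all listed genes. The intervals of 2 genes lay above 1, those of 3 below and those of 4 included 1. Over all listed genes 24.2% of intervals lay above 1 and 22.7% below, so the 22.2% and 33.3% of the 9 genes are near the background. With 99% intervals the counts were the same, against 19.1% above and 16.8% below over all listed genes. None was 1.5-fold apart either, against 1.51%. The median log2 fold was -0.06 for the 9 genes and 0.00 for all listed genes.

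**Figure D1:**
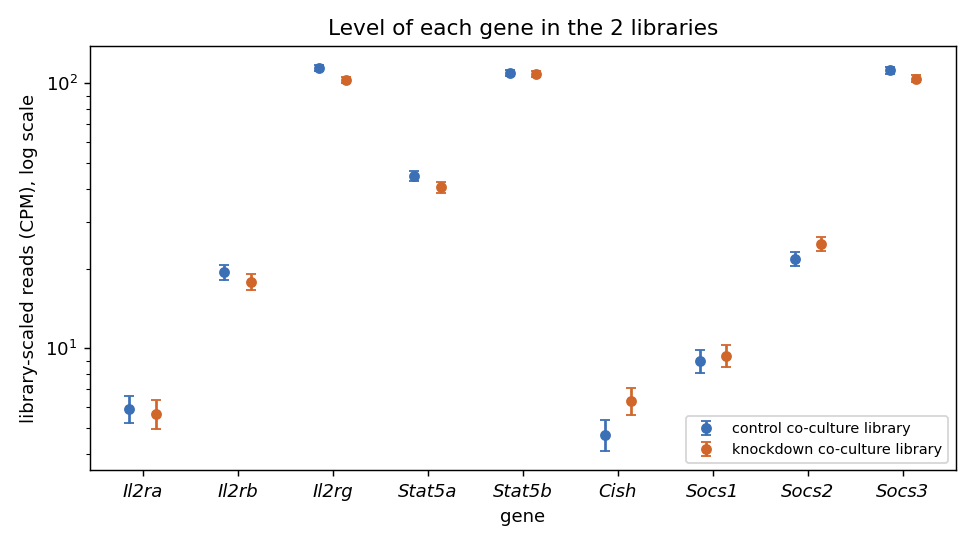
Library-scaled reads (CPM, log axis) of each gene in the control (blue) and knockdown (orange) co-culture library, with 1 library per group and bars for the exact 95% Poisson interval. Il2rg, Stat5b and Socs3 lie near 100 CPM, Il2ra, Cish and Socs1 below 10 CPM, and the bars of the libraries do not overlap for 5 of the 9 genes (Il2rg, Stat5a, Cish, Socs2 and Socs3), against 32.5% of all listed genes.

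Of the receptor chains, the common gamma chain gene was by far the most abundant. Il2rg (NCBI Gene 16186), whose product is shared by the receptors for IL-4, IL-7, IL-9, IL-15 and IL-21, had 5463 control and 4807 knockdown reads. These are 114 CPM (95% interval 111 to 117) and 103 CPM (99.9 to 106), so the library intervals do not overlap. Its fold was 0.902 (0.867 to 0.937), and 19.1% of all listed genes had a lower fold. A transcript that GENCODE M21 annotates on the same strand as Gm20489 overlaps 728 bases of the exons of Il2rg, so reads there could belong to either.

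The other chains could not be told apart from equality at this depth. Il2rb (NCBI Gene 16185), the signalling chain shared with the IL-15 receptor, had 928 and 833 reads, which is 19.4 and 17.8 CPM. Its fold of 0.920 had a 95% interval of 0.837 to 1.01. Il2ra (NCBI Gene 16184), the gene of the CD25 by which the cells had been isolated, had 282 and 264 reads. Its level was 5.89 CPM (5.22 to 6.61) with control and 5.65 CPM (4.99 to 6.37) with Capns1-knockdown endothelial cells. The point estimates of all 3 chains lay below 1, and the interval of 1 of them excluded it. The counting interval of Il2ra leaves room for folds from 0.808 to 1.14.

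Among the STAT5 genes, Stat5a was lower in the knockdown library and Stat5b was not distinguishable. Stat5a (NCBI Gene 20850) had 2147 control and 1895 knockdown reads, equal to 44.8 and 40.5 CPM. Its fold was 0.904, with a 95% interval of 0.850 to 0.962. Stat5b (NCBI Gene 20851) had 5232 and 5071 reads, equal to 109 and 108 CPM, and stood at 0.993 (0.955 to 1.03). Stat5a took 29.1% of the 7379 Stat5 reads in the control (exact 95% interval 28.1 to 30.2) and 27.2% of 6966 in the knockdown library (26.2 to 28.3). The intervals of these shares overlap, although the ratio of Stat5a to Stat5b reads, which needs no library scaling, differed by a factor of 0.911 with an interval of 0.846 to 0.980. Divided by transcript length, the Stat5a share was 35.5% and 33.4%.

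The genes of this pair are paralogs that lie next to each other on chromosome 11. Of the 50-base stretches in the longest coding Stat5a transcript of GENCODE M21, 15.8% occur unchanged in that of Stat5b, and of the 100-base stretches 6.99% do. No source used here states how reads that match both were assigned, which makes the split between Stat5a and Stat5b uncertain. Stat5a exons also overlap 72 bases of Stat3 on the opposite strand.

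The feedback genes went both ways. Cish (NCBI Gene 12700), a direct STAT5 target whose product CIS binds activated cytokine receptors, had 225 control and 296 knockdown reads. Its level was 4.70 CPM (95% interval 4.10 to 5.35) and 6.33 CPM (5.63 to 7.09), and these intervals do not overlap. The fold was 1.35 (1.13 to 1.61), and 1.09% of listed genes had a higher one. It was the only one of the 9 genes at least 25% higher or 20% lower with an interval excluding 1, against 7.84% of all listed genes. Counting intervals are wider for genes of few reads. Of the 4260 genes with fewer than 500 control reads, as Cish has, 7.11% were at least 25% higher with an interval above 1. At any fold, 10.8% of these genes had an interval above 1. The 7.11% counts higher genes only, while the 7.84% counts both directions, so the 2 shares are not alike. GENCODE M21 places Gm17041, an antisense gene, over 479 bases and the pseudogene Gm17040 over 261 bases of Cish exons on the opposite strand. No source used here states whether the counting was stranded, and without strand their reads cannot be told from those of Cish.

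Socs2 (NCBI Gene 216233), known as the brake on growth hormone signalling and also induced through STAT5, had 1043 control and 1159 knockdown reads. It stood at 21.8 CPM (95% interval 20.5 to 23.1) and 24.8 CPM (23.4 to 26.3), a fold of 1.14 (1.05 to 1.24), with no overlap of the library intervals. Of all listed genes 11.7% had a higher fold. Socs1 (NCBI Gene 12703), which inhibits JAK kinases directly and is strongly induced by interferon gamma, had 428 and 438 reads, at 8.93 and 9.37 CPM. Its fold of 1.05 had an interval from 0.916 to 1.20, so a difference was not detectable at this depth. Socs3 (NCBI Gene 12702), the inhibitor of receptors that use gp130 and a target of STAT3, had 5362 and 4874 reads. It stood at 112 and 104 CPM, a fold of 0.931 (0.896 to 0.968). Cish and Socs2 were thus the higher pair, Socs3 was the lower one, and Socs1 lay between them.

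**Figure D2:**
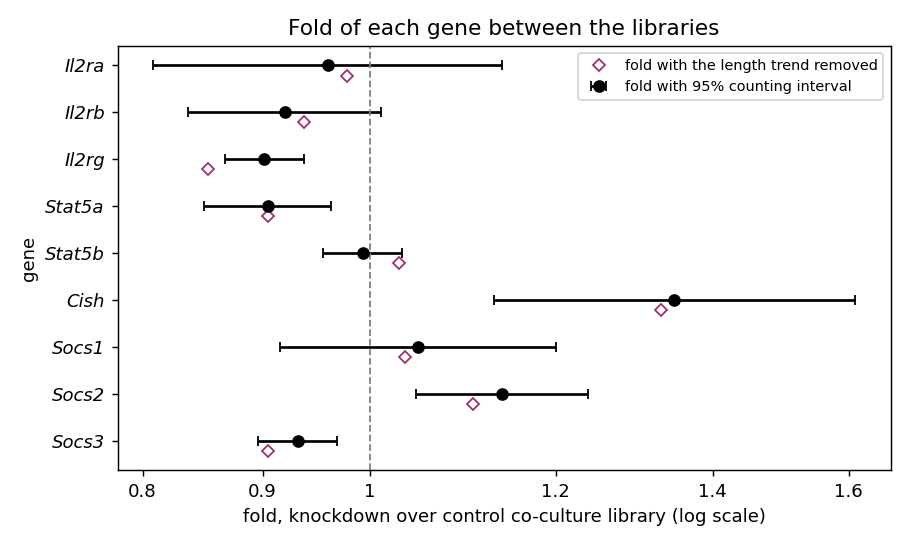
Fold of each gene, knockdown over control library (log axis), with its exact 95% interval for counting error (black) and the same fold after the trend of folds with transcript length was removed (open diamonds). Cish at 1.35 and Socs2 at 1.14 lie above 1, while Il2rg, Stat5a and Socs3 lie below it, with or without the length trend.

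Ratios of one gene to another within a library do not depend on how the libraries were scaled. Of the 36 pairs of the 9 genes, 16 had a ratio of reads that differed between the libraries with a 95% interval excluding 1, and no allowance was made for the number of pairs. Over all pairs of listed genes the share was 42.4%, counted with a normal interval chosen after the data were seen, under which 17 of the 36 pairs (47.2%) passed. The count for the 9 genes is thus near the background. Cish was in 7 of these 16, that is against every other gene except Socs2. These pairs share the Cish reads, so they restate the high fold of Cish and are not separate results. For each Il2rg read there were 0.0412 Cish reads with control and 0.0616 with knockdown endothelial cells, a difference by a factor of 1.495 (1.247 to 1.794). Against Stat5b, the more abundant STAT5 gene, the Cish ratio differed by a factor of 1.36 (1.13 to 1.63), and against Socs3 by 1.45 (1.21 to 1.74). Against Socs2 it stood at 1.18 (0.972 to 1.44). Socs2 differed from 5 of its 8 partners, for example by a factor of 1.26 (1.15 to 1.39) against Il2rg and 1.22 (1.11 to 1.34) against Socs3. Without Cish or Socs2, 4 pairs had an interval excluding 1. In 3 of them Stat5b was the higher partner, against Il2rg, Stat5a and Socs3, and in the other Il2rg was lower against Socs1. The ratio of Il2ra to Il2rg, the private to the shared chain, stood at 1.06 times its control value (0.892 to 1.27).

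Levels of different genes were compared per kilobase of transcript, using the longest GENCODE M21 transcript that carries a curated RefSeq accession of the gene. In the control library the order from the top was Il2rg at 68.3 CPM per kilobase, Socs3 at 43.9, Stat5b at 20.9, Stat5a at 11.5, Socs2 at 9.80, Il2rb at 4.62, Socs1 at 3.07, Cish at 1.65 and Il2ra at 1.33. Il2ra was the lowest of the 9 in both libraries, at 1.28 CPM per kilobase in the knockdown library. In the control its counting interval (1.18 to 1.499) overlapped that of Cish (1.44 to 1.88), and in the knockdown library, with Cish at 2.22 (1.98 to 2.49), it did not. The order of Socs2 and Stat5a was the other way round in the knockdown library, at 11.2 (10.5 to 11.8) and 10.4 (9.96 to 10.9), where the intervals overlap. All other neighbours in the control order had separate counting intervals, though the spread between cultures is unknown and a different transcript model would move the values.

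**Figure D3:**
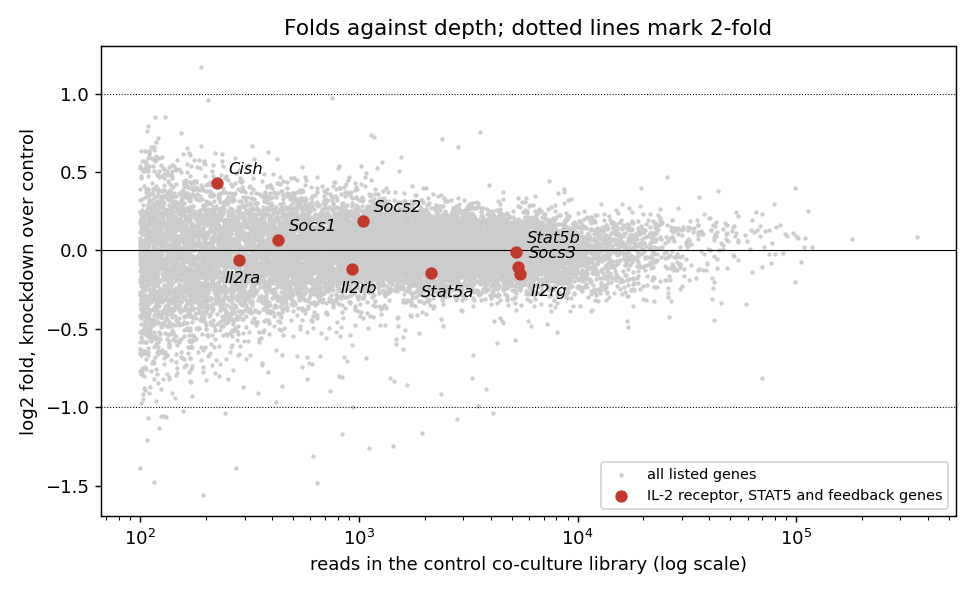
Log2 fold of each listed gene (grey) against its reads in the control library (log axis), with the 9 genes in red and dotted lines at 2-fold. Cish (0.43) lies in the upper part of the cloud at its depth, and the other 8 lie near 0.

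The partners of the pathway were read from 12 lists of textbook members. Of 111 genes measured outside the 9, none was 2-fold apart, and the median log2 fold was -0.03. For 23 the interval lay above 1 (20.7%, against 24.2% of all listed genes) and for 36 below (32.4%, against 22.7%). These shares depend on depth, since among genes with fewer than 500 control reads 10.8% of intervals lay above 1. The 111 genes were not matched to genes of like reads. Folds ran from 0.703 for Prf1, the pore-forming protein perforin, to 1.31 for Dusp5, a phosphatase of ERK kinases. The ligands IL-2, IL-4, IL-7, IL-9, IL-15, IL-21 and TSLP were not analysed here.

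Of the 7 receptor chains that pair with the common gamma chain or resemble its partners, 3 had intervals below 1 and 1 above, with a median log2 fold of -0.08. Il7r, the IL-7 receptor chain of resting lymphocytes, had 3187 and 2608 reads, a fold of 0.839 (95% interval 0.796 to 0.883). Il4ra, the IL-4 receptor chain, was the most abundant, with 6315 and 5709 reads and a fold of 0.926 (0.894 to 0.960), and Il13ra1, a chain of the IL-13 receptor, stood at 0.836 (0.754 to 0.926). Il21r, the next in abundance, stood at 1.01 (0.962 to 1.05) and Il15ra, the private chain for IL-15, at 0.970 (0.807 to 1.17). The interval above 1 was that of Crlf2, the TSLP receptor chain, at 1.12 (1.05 to 1.19), named after its value was seen. Il7r and Il4ra were thus lower in the knockdown library, as Il2rg was, while Il21r was not distinguishable from equality.

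Among the 9 measured receptors of other cytokines that use STAT5, 2 intervals lay below 1 and 1 above, with a median log2 fold of -0.05. Csf2rb2, the IL-3 receptor beta chain of mice, stood at 0.855 (95% interval 0.797 to 0.917) and Csf3r, the receptor of granulocyte colony-stimulating factor, at 0.830 (0.760 to 0.905). The most abundant, Csf2ra and Csf2rb of the GM-CSF receptor, stood at 0.970 (0.925 to 1.02) and 0.964 (0.918 to 1.01).

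The Janus kinase list had 2 of 4 intervals below 1 and none above. Jak1, the kinase bound to the IL-2 receptor beta chain, had 18808 and 16372 reads, at 393 and 350 CPM, with a fold of 0.892 (95% interval 0.873 to 0.911). Jak3, the partner of the common gamma chain, had 4416 and 4297 reads and stood at 0.997 (0.956 to 1.04). Jak2, which serves the STAT5-using receptors of growth hormone and IL-3, stood at 0.962 (0.931 to 0.995). Of the 5 other STAT genes 4 had intervals below 1 and none above. Stat4, the IL-12 responsive member, stood at 0.783 (0.735 to 0.835) and Stat3 at 0.954 (0.929 to 0.981). Stat5b, at 0.993, was thus nearer to 1 than Stat3, Stat4 and Stat5a. Stat6, named after its value was seen, was also near 1, at 0.988 (0.958 to 1.02). With the length trend removed Stat5b stood at 1.03.

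Receptors that induce Socs3 and Socs1 were read beside them. Of 8 receptors of the gp130 and IL-10 families 3 had intervals below 1 and 1 above, with a median log2 fold of -0.08. Il6ra, the IL-6 binding chain, had 1731 and 1263 reads, a fold of 0.748 (95% interval 0.695 to 0.804). Il6st, which encodes gp130 itself, had 9020 and 7327 reads, a fold of 0.832 (0.807 to 0.858). Il10ra stood at 0.934 (0.890 to 0.981) and Il11ra1 at 1.21 (1.08 to 1.35). Socs3 and both chains of the IL-6 receptor were thus lower in the same library, and whether they are linked was not tested. Of 4 interferon receptor chains, Ifnar1 had an interval below 1, at 0.872 (0.841 to 0.905), and none was above. The other 3 chains had intervals that included 1, as Socs1 had. Among them Ifngr1, the ligand-binding chain for interferon gamma, stood at 1.01 (0.967 to 1.05). Whether these chains and Socs1 are linked was not tested.

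The remaining SOCS genes and the parts of the SOCS box ligase did not share one direction. Socs4 and Socs5 stood at 0.897 (95% interval 0.855 to 0.941) and 0.907 (0.848 to 0.971), and Socs6 and Socs7 at 1.02 (0.966 to 1.08) and 0.979 (0.935 to 1.02). Elob and Eloc, the elongins that bind the SOCS box, stood at 1.16 (1.12 to 1.20) and 1.07 (1.03 to 1.12). Over the 9 genes of this list 3 intervals lay above 1 and 2 below. Among the 8 SOCS family genes, including Cish, 2 intervals therefore lay above 1, 3 below and 3 included it. Over all listed genes 24.2% of intervals lay above 1 and 22.7% below, and 8 genes are too few to set these counts apart from that.

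Other brakes on the pathway had 6 of 14 intervals below 1 and 3 above. Ptprc, the phosphatase CD45 of all leukocytes, had 30049 and 25064 reads, a fold of 0.855 (95% interval 0.840 to 0.869), and Ptpn6, the phosphatase SHP-1, stood at 0.973 (0.9501 to 0.9967). Cbl, a ubiquitin ligase, stood at 0.843 (0.817 to 0.869). Ptpn2, a phosphatase that acts on JAK1, JAK3 and STAT5, stood at 1.14 (1.07 to 1.20), and Dusp5, which IL-2 induces in T cells, had 717 and 919 reads and stood at 1.31 (1.19 to 1.45).

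Targets of IL-2 and STAT5 outside the 9 genes had intervals on both sides of 1. Of 29 intervals 8 lay above 1 and 7 below, against 24.2% and 22.7% of all listed genes, and the median log2 fold was -0.02. The list did not separate targets that the pathway raises from those it lowers. The counts therefore do not show whether the targets disagree. Pim1, a survival kinase and a classical STAT5 target, had 5658 and 5768 reads, a fold of 1.04 (95% interval 1.01 to 1.08). Ccnd2, the gene of cyclin D2, stood at 1.04 (1.02 to 1.07) and Myc at 1.01 (0.975 to 1.05). The survival gene Bcl2 stood at 0.863 (0.815 to 0.914) and Mcl1, the most abundant, at 0.958 (0.941 to 0.976). Ifitm3, an interferon-induced membrane protein gene, stood at 1.11 (1.08 to 1.14). Prf1 had 264 and 181 reads, a fold of 0.703 (0.578 to 0.852), and Prdm1, the gene of the effector cell factor BLIMP-1, had 129 and 91 reads, a fold of 0.723 (0.547 to 0.953). The Treg genes on this list, Foxp3 at 0.906 (0.752 to 1.09), Ctla4 at 1.05 (0.802 to 1.38) and Ikzf2 at 0.859 (0.738 to 1.0003), had intervals that included 1. For Ikzf2 the upper end lay barely above 1. Other targets stood above 1 with Cish and Socs2, among them Pim3, a kinase related to Pim1, at 1.16 (1.11 to 1.22) and Gfi1, a transcriptional repressor of blood cells, at 1.21 (1.03 to 1.43), both named after their values were seen.

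The PI3K and MAP kinase arm of the receptor and the genes of its trafficking also lay close to 1. Of 16 adaptor and kinase genes 4 had intervals above 1 and 6 below, with a median log2 fold of -0.01. Akt1 stood at 1.10 (95% interval 1.07 to 1.12) and Hras at 1.17 (1.10 to 1.24), both growth signalling genes, and Syk, the kinase of B and myeloid cells, stood at 0.881 (0.861 to 0.902). Of 6 endocytosis and recycling genes, 2 had intervals above 1 and none below. They were Ap2m1 of the clathrin adaptor at 1.06 (1.04 to 1.08) and Gga1, an adaptor of sorting vesicles, at 1.06 (1.02 to 1.10), while Vps35 of the retromer stood at 0.990 (0.963 to 1.02).

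**Figure D4:**
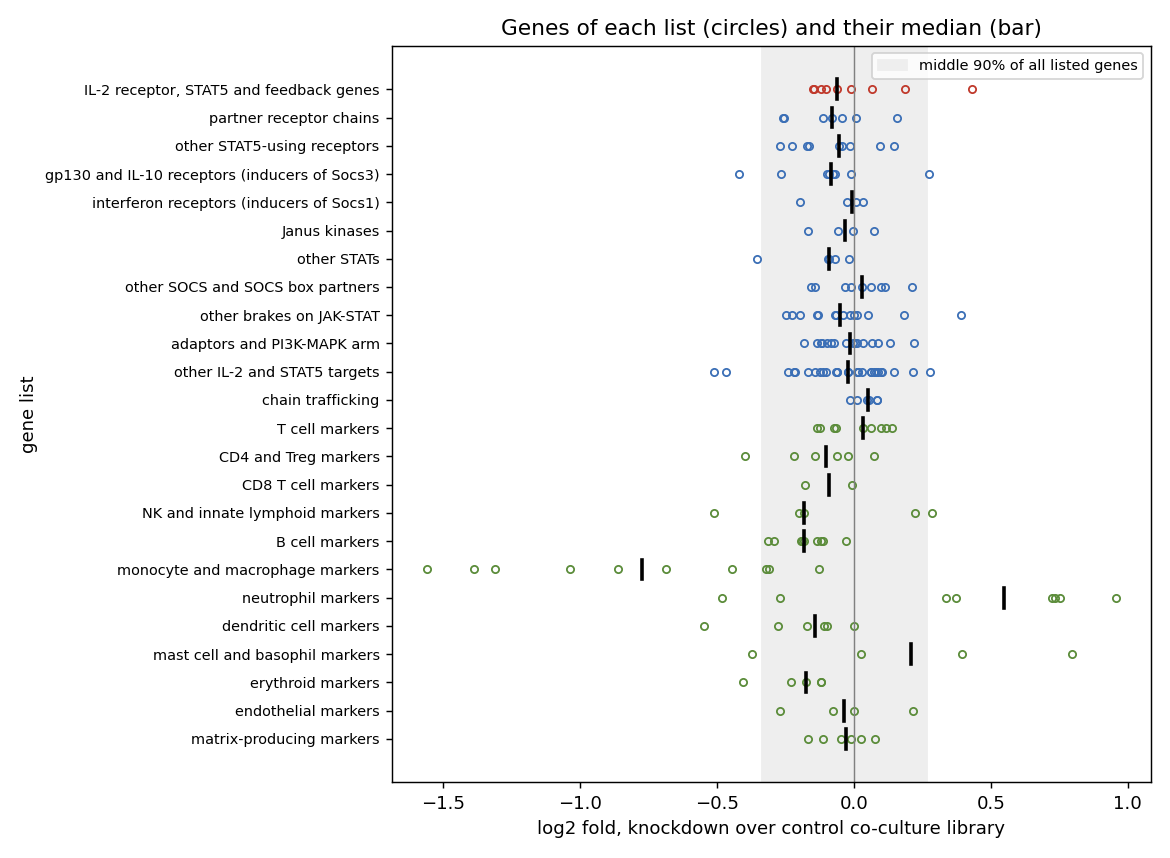
Log2 fold (knockdown over control library) of each measured gene, by list, as circles, with a black bar at the list's median. The grey band spans the middle 90% of all listed genes (-0.34 to 0.27). Pathway lists (blue) centre near 0, Cish (0.43) is the only one of the 9 genes (red) outside the band, and the monocyte and macrophage and the neutrophil markers (green) lie farthest from 0, in opposite directions.

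Markers of other cells also differed between the libraries. The summed level of 8 measured neutrophil markers was 311.2 CPM with control and 436.7 CPM with knockdown endothelial cells, with 6 intervals above 1 and 2 below. These include Mpo, the myeloperoxidase of granulocyte precursors, at a fold of 1.69 (95% interval 1.62 to 1.76). The 2 below 1 were Retnlg, a resistin-like secreted protein of mature neutrophils, at 0.717 (0.583 to 0.879) and Csf3r at 0.830. Of 4 measured mast cell and basophil markers, whose sum was 29.7 and 32.3 CPM, 2 intervals lay above 1 and 1 below. Kit, the receptor of stem cell factor and a marker of progenitors and mast cells, stood at 1.32 (1.14 to 1.52) and Cpa3, a mast cell protease, at 1.74 (1.37 to 2.22). Ms4a2, the beta chain of the IgE receptor, stood at 0.773 (0.649 to 0.919) and Gata2, a factor of progenitors and mast cells, at 1.02 (0.914 to 1.13). The summed levels of both lists were higher in the same library as Cish and Socs2, though their members went both ways, and their part in that difference was not tested.

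The summed levels of other lists were lower in the same library as Il2rg, Stat5a and Socs3. All 10 measured monocyte and macrophage markers had intervals below 1, with a sum of 1269 and 913.6 CPM. Of these, 4 were at least 2-fold lower with an interval excluding 1, as were 20 of all 14774 listed genes. In either direction the share over all listed genes was 0.142%. Of 9 B cell markers 8 had intervals below 1, with a sum of 2829 and 2516 CPM. The 6 dendritic cell markers summed to 136.9 and 126.1 CPM, with 2 intervals below 1 and none above. All 5 measured erythroid markers, most of them haemoglobin genes, had intervals below 1, with a sum of 2580 and 2321 CPM. The 6 measured markers of matrix-producing cells summed to 2701 and 2589 CPM, with 1 interval above 1 and 2 below, and the 4 endothelial markers to 104.7 and 101.8 CPM, with 1 above and 1 below. The part of these lists in the lower folds of Il2rg, Stat5a and Socs3 was not tested.

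Of the other lymphocyte lists, those of T cells and of NK and innate lymphoid cells had intervals on both sides of 1. The 9 T cell markers had 1 interval above 1 and 2 below. The 6 CD4 and Treg markers summed to 35.02 and 31.29 CPM, with 1 interval below 1, that of Cd4 at 0.759 (95% interval 0.650 to 0.886), and none above. Of 5 markers of NK and innate lymphoid cells, which carry the beta chain, 2 intervals lay above 1 and 1 below, with a sum of 28.4 CPM in both libraries. Those above were Nkg7, a granule protein gene, at 1.22 (1.05 to 1.42) and Klrd1, the receptor chain CD94, at 1.17 (1.01 to 1.35), and the one below was Prf1 at 0.703. CD8 T cell markers, 2 in number, summed to 109.7 and 102.1 CPM. Of these Cd8a had an interval below 1, at 0.884 (0.839 to 0.932), and none was above. No marker was listed at 0, since the table starts at 100 control reads.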

How the data were processed

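RNA from co-cultured cells was sequenced in 1 control and 1 knockdown library. The authors deposited 1 table of raw read counts per gene, per the file headers, with 2 further sets of scaled counts (a signal scaled to equal totals or by a TMM factor), which were not used for folds. The submitters' processing notes name Trimmomatic 0.39, BWA 0.7.17 and the builds mm8 and GRCm39, with no role stated. For the assignment of reads to genes, the method is not stated in the sources used here.

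The row of library totals was left out, and 0.782% and 0.764% of the totals belong to no listed gene. The lowest listed value is 100 reads in the control column and 37 in the other. A gene that is higher but starts below 100 control reads is therefore not analysed. Library sizes used edgeR 4.0.16 TMM factors (1.004 and 0.996) in R 4.3.3, and the rest Python 3.11.15 with scipy 1.17.1. The 14774 genes all passed the filter of 1 CPM in a library and 10 reads in both. Fold intervals are exact Clopper-Pearson intervals, pair ratios have exact conditional intervals, and log2 folds used a prior count of 0.5. Called means a fold of at least 2 or at most 0.5 with an interval excluding 1. The scripts were tested on simulated data.

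The 9 genes and all lists were chosen with earlier results of these data known. Named genes are the 9, a fixed set of pathway and marker genes taken whatever their values, and from each list the 2 most abundant and the 2 with the fold farthest from 1 among intervals excluding 1. Not every gene the rule takes is repeated in the text, and 1 of them is not reported here. Transcript lengths were found for 90.6% of genes. Alternatives were DESeq2 1.42.0 size factors, total and upper-quartile scaling, other prior counts, filters, thresholds and intervals, and removal of the length trend.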

Additional observations from a re-analysis of the deposited data

How the results depend on the processing

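Of the 9 genes, 2 had intervals above 1 and 3 below in the main analysis. The counts were the same under DESeq2 size factors, total counts and upper-quartile scaling. They were also the same with a filter of at least 5 CPM, a 99% interval and removal of the length trend. Leaving the filter out could not change them, since all listed genes passed it. The main folds carry no prior count, so leaving that out could not move them. The fold of Cish ran from 1.33 to 1.35 and that of Socs2 from 1.11 to 1.14 over these scalings, filters and prior counts. The median log2 fold of the 9 genes ran from -0.07 to -0.03. With the length trend removed the fold of Il2rg was 0.853 and the median of the other STAT genes -0.04. With a call at 25% higher or 20% lower in place of 2-fold, 1 of the 9 genes passed, and at 1.5-fold none did. Per kilobase the Stat5a share of Stat5 reads was 35.5% (control) and 33.4% (knockdown), an alternative chosen after the data were seen. No paired analysis was possible because each group has 1 library. Depth limits Il2ra, Cish and Socs1 most, the genes with the fewest reads.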
